A study of Sus scrofa with 120 samples.

Results

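The data described here are the vehicle controls of an experiment on the ion channel TRPV4, compared between 2 harvest times. They comprise 4 RNA-seq libraries of pig chondrocyte constructs harvested 9 h after the onset of stimulation and 4 harvested at 3 h, 8 of the 120 libraries of the series. The libraries were chosen by title: those named as DMSO vehicle control at either time, without mention of transduction or siRNA. No measured value entered the choice.

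The series asks how chondrocytes respond when the calcium-permeable channels TRPV4 and PIEZO1 are opened. All libraries came from primary pig (Sus scrofa) chondrocytes of femoral cartilage, cast in 2% agarose to form small tissue-engineered constructs and cultured in serum-containing high-glucose medium. Of the 120 libraries, 48 belong to the TRPV4 experiment and 72 to the PIEZO1 experiment, with 4 libraries in every group. The DMSO constructs received the drug solvent dimethyl sulfoxide at 1:1000 in medium, were left free swelling (no loading), received no channel drug or siRNA by their titles, and were flash frozen at 3 h or 9 h. Their genotype is labelled WT/NT. As a comparison the non-transfected (NT) vehicle controls of the PIEZO1 experiment were used, titled non-transduced. Their cells passed through culture wells without a transfection reagent before casting, and the constructs received DMSO at the same dilution, were free swelling and were harvested at the same 2 times (4 libraries each). Whether the 4 libraries of a group stem from separate animals or cultures, or from pooled animals, is not said in the labels. The p-values therefore reflect only how these samples spread, which may be technical. They give no harvest, extraction or library batch either. Time and any such batch cannot be told apart in either experiment.

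Chondrocytes are the matrix-making cells of cartilage. They live in a tissue with few vessels and little oxygen, draw much of their energy from glycolysis, and build a matrix of type II collagen and aggrecan under the transcription factor SOX9. Hypoxia-inducible factors raise glycolytic enzymes and lactate export, sterol-sensing factors raise cholesterol synthesis when membrane sterol is low, and a circadian clock runs in cartilage as in other tissues.

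The deposited values are raw counts of reads per gene. The 8 DMSO libraries held 20651530 to 35352928 counts, 20651530, 24742011, 27137989 and 29904509 at 3 h and 25001881, 35352928, 24190041 and 28515517 at 9 h for replicates 1 to 4. Levels are given as CPM, the depth-normalised count on the TMM-scaled total, as mean ± SD of 4 libraries, and changes as log2 fold change of 9 h over 3 h ± standard error. A gene was called when edgeR's quasi-likelihood test gave a Benjamini-Hochberg adjusted p under 0.05, with no minimum fold, and every adjusted p below comes from that test. CPM is not divided by gene length, so levels were compared between times and not between genes.

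The cells carried the markers of their label. At 3 h COL2A1 stood at 55589.8 ± 7075 CPM, ACAN at 20046 ± 1203 and SOX9 at 806 ± 80.2. Markers of other cell types were low where they are defining: 5 of 12 listed leukocyte markers and 5 of 9 listed adipocyte and erythroid markers did not pass the filter on low counts, and the tested endothelial and mural markers summed to 4.49 to 6.13 CPM per library at 3 h and 5.00 to 7.78 at 9 h. The 7 tested leukocyte markers summed to 37.3 to 41.5 CPM at 3 h and 34.6 to 41.6 at 9 h. Fibroblast and synovial markers, several of which chondrocytes in culture also express, summed to 813 to 860.4 CPM at 3 h and to 639.9 to 693 at 9 h, and 4 of 11 were called lower: PDGFRA (-0.66 ± 0.05), COL1A1 (-0.54 ± 0.17), PDGFRB (-0.51 ± 0.08) and COL3A1 (-0.26 ± 0.07). The 4 called are 36.4% of the tested fibroblast and synovial markers, against 11.8% of all genes called lower. In a bulk sample, fewer cells of a type and less RNA per cell cannot be told apart.

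Small RNA genes took 6.46, 13.2, 7.24 and 7.89% of the counts in the 3 h libraries and 7.54, 5.67, 5.54 and 8.31% in the 9 h libraries, the largest share in replicate 2 at 3 h. The 10 most abundant genes took 16.9 to 21.6% of the counts at 3 h and 15.5 to 16.9% at 9 h, and this fall had the smallest p the design allows (two-sided exact permutation test, p = 0.0286) but did not pass adjustment over the 8 measures compared (adjusted p = 0.114). None of the 8 passed, which at this size would take several measures at that smallest p together. The share of counts in histone genes reached the same unadjusted p of 0.0286 by the exact permutation test, and the other 6 measures, total count and genes detected among them, had an exact permutation p of 0.0571 or more. Of 349 small RNA genes tested, 0 were called higher and 16 lower (4.58%, against 11.8% of all genes). The named examples rest partly on that library: Metazoa_SRP, a signal recognition particle RNA annotation, fell by 0.75 on the log2 scale with all libraries (adjusted p = 0.019), and without replicate 2 at 3 h its log2 fold change was -0.41 (adjusted p = 0.26). It also missed the threshold without replicate 2 or 3 at 9 h (adjusted p 0.071 and 0.083). The miscellaneous RNA ENSSSCG00000021003 (-0.78 ± 0.25) behaved alike, with an adjusted p of 0.32 without replicate 2 at 3 h and 0.064 and 0.091 without replicate 2 or 3 at 9 h. The small nucleolar RNA ENSSSCG00000042218 (-0.89 ± 0.24) had an adjusted p of 0.095 without replicate 4 at 3 h.

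Between 3 h and 9 h, with solvent and no stimulus, 3881 of 17447 genes tested differed. That is 22.2% of them, 1822 higher at 9 h (10.4%) and 2059 lower (11.8%). Most of these changes were small. Their median size was 1.26-fold (0.33 on the log2 scale), 98 of the higher and 141 of the lower genes differed by 2-fold or more, and a test against a fold of 1.2 called 711 genes (315 higher and 396 lower) in place of 3881. In 3725 genes (21.4%) the 4 libraries of one time did not overlap the 4 of the other, 3008 of them among the called genes. The median log2 fold change over all genes tested was -0.0024.

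Lists of genes were read against these shares. Hypoxia and glycolysis genes stood out on the lower side, with 21 of 26 tested members called lower (80.8%, against 11.8% of all genes), and cholesterol synthesis genes on the higher side, with 18 of 24 called higher (75.0%, against 10.4%). Cartilage matrix genes (13 of 28 lower) and clock genes (10 of 24 lower) fell more often than all genes did, though mostly by small amounts. The NRF2 list held 8 of 17 called higher. Across the 31 lists, 588 different genes were tested, 95 called higher and 155 lower, both larger shares than over all genes. A list share moderately above that of all genes therefore does not set that list apart from the others. The lists were drawn up with earlier results of these data known, so the counts describe the members and no test of a list was made.

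**Figure D1:**
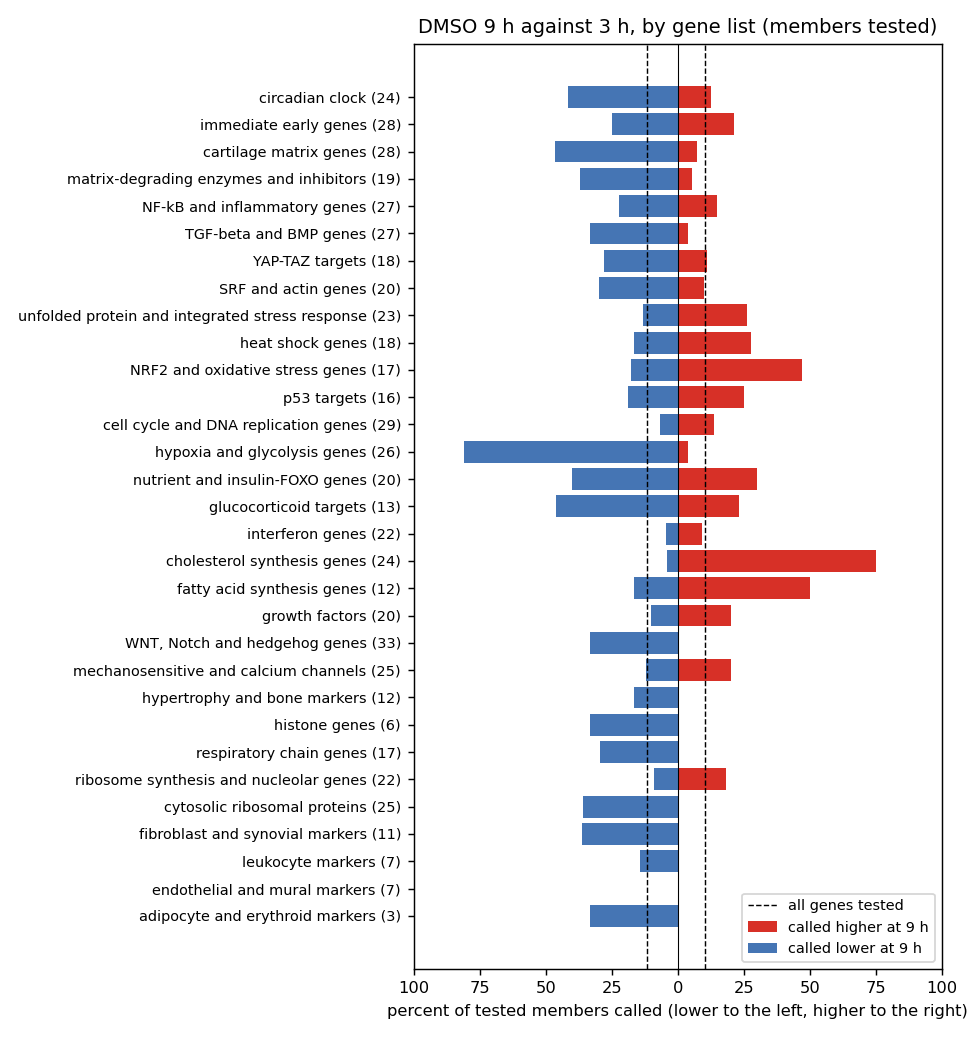
Share of the tested members of each list that were called at an adjusted p under 0.05 in DMSO libraries at 9 h against 3 h, in percent, with higher to the right and lower to the left (number of members tested in parentheses). Dashed lines give the shares among all 17447 genes, 10.4% higher and 11.8% lower. Hypoxia and glycolysis genes reach 80.8% lower and cholesterol synthesis genes 75.0% higher.

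The 15 protein-coding genes with the largest rise were of mixed function. CYP1A1, a cytochrome P450 that is the standard target of the aryl hydrocarbon receptor (ENSSSCG00000001906, chromosome 7, 58802887 to 58809155 of Sscrofa11.1), rose most. Its libraries held 5.32, 3.50, 5.74 and 5.70 CPM at 3 h and 20.1, 18.4, 20.3 and 20.6 at 9 h (1.96 ± 0.15, adjusted p = 3.2e-15), a 3.90-fold difference. All 4 libraries at 9 h lay far above the highest at 3 h, and the spread within each time was small beside the gap. LRP11, which encodes a transmembrane protein, held 1.77, 2.82, 2.57 and 2.11 CPM at 3 h and 7.09, 8.09, 7.57 and 9.36 at 9 h (1.79 ± 0.16). AKNA, an AT-hook protein of the centrosome, held 19.1, 19.5, 19.4 and 20.1 CPM at 3 h and 51.0, 54.3, 54.4 and 54.0 at 9 h (1.45 ± 0.09), with closely matched 3 h libraries. RHOU, a small GTPase, held 15.2, 16.5, 14.9 and 14.4 CPM at 3 h and 34.3, 35.3, 39.9 and 42.5 at 9 h (1.32 ± 0.08). PPP1R3B, which brings protein phosphatase 1 to glycogen, held 89.2, 68.3, 79.6 and 76.1 CPM at 3 h and 179, 173, 190.4 and 207 at 9 h (1.26 ± 0.10).

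Stress-response regulators stood among these rises. The transcription factor gene ATF3 held 28.3, 28.4, 28.8 and 29.2 CPM at 3 h and 69.7, 63.0, 66.3 and 71.1 at 9 h (1.23 ± 0.06, adjusted p = 3.1e-22), with little spread at 3 h. TRIB3, a pseudokinase that is a target of the stress factor ATF4, held 74.6, 76.2, 78.0 and 75.3 CPM at 3 h and 167, 154, 167 and 169 at 9 h (1.11 ± 0.06, adjusted p = 2e-21). GDF15, a stress-induced cytokine of the TGF-beta superfamily, held 10.1, 16.4, 15.0 and 15.4 CPM at 3 h and 28.5, 26.6, 29.3 and 28.9 at 9 h (0.99 ± 0.11). SLFN11, a Schlafen family gene of the DNA damage response, held 5.86, 5.95, 6.22 and 5.77 CPM at 3 h and 10.9, 15.4, 14.6 and 14.1 at 9 h (1.21 ± 0.13). In each of these genes the times did not overlap, as the naming rule required.

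The other rises were mostly of low level. PPM1K, the mitochondrial phosphatase that activates branched-chain amino acid breakdown, held 46.3, 42.3, 44.7 and 39.8 CPM at 3 h and 88.0, 89.3, 94.6 and 95.7 at 9 h (1.09 ± 0.06), and GPCPD1, which splits glycerophosphocholine, held 15.9, 16.3, 13.6 and 14.03 CPM at 3 h and 30.5, 32.5, 27.5 and 32.3 at 9 h (1.04 ± 0.08). RAB39B, a small GTPase of vesicle traffic, held 3.04, 4.87, 4.55 and 4.20 CPM at 3 h and 11.3, 7.53, 9.02 and 11.0 at 9 h (1.21 ± 0.13), and ATP8A1, a phospholipid flippase, 4.91, 4.30, 4.73 and 5.00 CPM at 3 h and 10.1, 12.1, 9.13 and 9.76 at 9 h (1.12 ± 0.14). Both are low genes, and their libraries spread more within a time than those of PPM1K. NT5DC1, a nucleotidase-domain gene that hosts COL10A1 in RefSeq's models, held 3.59, 4.59, 4.21 and 5.28 CPM at 3 h and 9.15, 8.60, 9.84 and 11.104 at 9 h (1.12 ± 0.15), while COL10A1 itself was not called (0.05 ± 0.33). CPLANE2, a gene of cilium assembly, held 4.04, 4.83, 4.76 and 4.39 CPM at 3 h and 9.15, 9.35, 8.70 and 8.76 at 9 h (1.00 ± 0.17), and its whole model overlaps an uncharacterised RefSeq gene, so its reads may not all be its own.

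The largest falls were steeper than the largest rises. LANCL3, of the LanC-like family, held 8.68, 10.4, 12.6 and 12.0 CPM at 3 h and 1.77, 1.94, 2.74 and 2.06 at 9 h (-2.37 ± 0.14, adjusted p = 8.2e-19), a 5.17-fold higher level at 3 h. SLC16A3, which encodes the lactate exporter MCT4 (ENSSSCG00000024018, chromosome 12, 796882 to 807480 of Sscrofa11.1), held 347, 340.3, 328 and 413 CPM at 3 h and 76.7, 64.5, 69.5 and 74.2 at 9 h (-2.33 ± 0.08, adjusted p = 8.1e-28). Every 9 h library lay far below the lowest 3 h library, and the 3 h group was led by replicate 4. TMEM74B, a transmembrane protein gene, held 4.77, 6.52, 6.54 and 6.44 CPM at 3 h and 1.28, 1.07, 1.28 and 1.25 at 9 h (-2.33 ± 0.19). GABRA2, a subunit of the GABA-A receptor, held 4.77, 7.60, 5.67 and 5.86 CPM at 3 h and 1.03, 1.26, 1.07 and 1.43 at 9 h (-2.31 ± 0.19). Both are low genes that came close to 1 CPM in every 9 h library.

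MGAT3, CACNA1I, SMPD3 and ATG9B followed. MGAT3, which adds the bisecting sugar to N-glycans, held 6.04, 5.91, 3.86 and 6.57 CPM at 3 h and 1.14, 1.02, 1.53 and 1.19 at 9 h (-2.21 ± 0.19). CACNA1I, a pore subunit of T-type calcium channels, held 60.5, 64.1, 69.95 and 82.5 CPM at 3 h and 13.7, 14.2, 18.9 and 16.2 at 9 h (-2.14 ± 0.09, adjusted p = 3.1e-25). SMPD3, the neutral sphingomyelinase known for its role in cartilage and bone mineralisation (ENSSSCG00000002764, chromosome 6, 28938287 to 29025397 of Sscrofa11.1), held 385, 352, 370.4 and 445 CPM at 3 h and 99.4, 82.4, 91.5 and 95.1 at 9 h (-2.08 ± 0.08, adjusted p = 8.1e-28). SMPD3 overlaps PRMT7 in RefSeq's models, and PRMT7 was not called (-0.15 ± 0.07). ATG9B, an autophagy lipid scramblase, held 20.4, 24.98, 24.0 and 29.2 CPM at 3 h and 6.88, 6.27, 5.79 and 5.61 at 9 h (-2.01 ± 0.11). Over these 4 genes every 9 h library lay below every 3 h library, as the naming rule required.

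The remaining large falls included more genes of the hypoxia response. EGLN3, an oxygen-sensing prolyl hydroxylase and itself a target of hypoxia-inducible factors, held 15.5, 15.1, 15.4 and 17.6 CPM at 3 h and 5.07, 4.66, 4.87 and 4.99 at 9 h (-1.70 ± 0.10), with closely matched 9 h libraries. BNIP3, a mitophagy receptor of the outer mitochondrial membrane (ENSSSCG00000024388, chromosome 14, 140362123 to 140371951 of Sscrofa11.1), held 786, 772, 755 and 851 CPM at 3 h and 244, 232, 253 and 258 at 9 h (-1.68 ± 0.06, adjusted p = 2.6e-28). The taurine transporter gene SLC6A6 held 55.3, 60.3, 58.8 and 63.9 CPM at 3 h and 18.9, 19.2, 17.7 and 19.0 at 9 h (-1.67 ± 0.07). MT1A, a metal-binding metallothionein, held 11.8, 10.7, 16.3 and 13.5 CPM at 3 h and 3.80, 3.18, 4.05 and 4.12 at 9 h (-1.80 ± 0.21), and since the table describes its identifier as another member of that family, which metallothionein was counted is uncertain. ARSI, an arylsulfatase, held 24.9, 29.0, 29.4 and 35.6 CPM at 3 h and 11.8, 8.99, 10.2 and 9.36 at 9 h (-1.57 ± 0.10), ISLR2, a neuronal leucine-rich repeat protein gene, 11.5, 10.7, 9.53 and 12.3 CPM at 3 h and 4.08, 3.01, 3.55 and 3.31 at 9 h (-1.66 ± 0.14), and RADIL, a Rap effector, 17.1, 19.4, 20.3 and 25.3 CPM at 3 h and 6.21, 7.43, 6.71 and 7.52 at 9 h (-1.56 ± 0.10). By the size of its p, CGNL1, which encodes the junction protein paracingulin, belonged to the clearest falls, with 167, 149, 156 and 151 CPM at 3 h and 48.3, 54.5, 56.6 and 55.4 at 9 h (-1.53 ± 0.06, adjusted p = 8.1e-28).

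**Figure D2:**
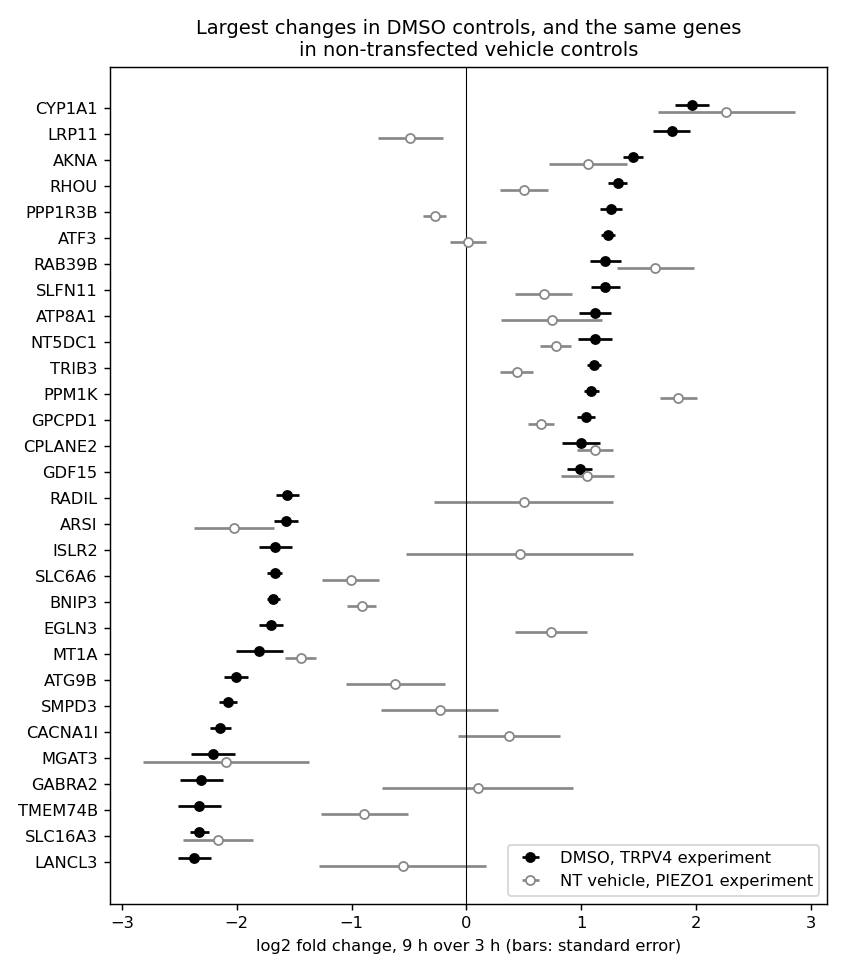
Log2 fold change of 9 h over 3 h (horizontal axis) with its standard error for the 15 largest rises and 15 largest falls in DMSO libraries (filled), chosen by that change, and for the same genes in NT vehicle libraries of the PIEZO1 experiment (open). SLC16A3 fell by similar amounts in both, while EGLN3, LRP11, ATF3 and PPP1R3B lie apart.

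Hypoxia and glycolysis genes showed the broadest fall. Of 26 tested members 21 were called lower and 1 higher, the median log2 fold change was -0.80 against -0.0024 over all genes, and 20 of the 21 fell with no overlap between times. Summed over the members, the libraries held 12079 to 12595 CPM at 3 h and 7562 to 8118 CPM at 9 h. The fall ran along the glycolytic pathway. The hexokinases HK2 (161, 169, 173 and 194 CPM at 3 h and 73.5, 70.6, 77.5 and 64.7 at 9 h, -1.29 ± 0.06) and HK1 (-0.88 ± 0.05), which trap glucose in the cell, both fell, and so did PFKP, which commits sugar to glycolysis (138 ± 6.59 to 73.2 ± 4.20 CPM, -0.92 ± 0.06). The triose-phosphate isomerase gene TPI1 held 833, 843, 827 and 848 CPM at 3 h and 439, 409, 423 and 423 at 9 h (-0.98 ± 0.05, adjusted p = 8.3e-23). The gap between its times was many times the spread within either.

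The lower arm of glycolysis fell as well, by mostly smaller factors. PGK1 (692 ± 29.9 to 411 ± 13.9 CPM, -0.75 ± 0.05), PGAM1 (-0.84 ± 0.08), ENO1 (4138 ± 120.1 to 2827 ± 109 CPM, -0.55 ± 0.04) and PKM (1474 ± 29.3 to 1000.1 ± 51.4 CPM, -0.56 ± 0.04) carry glucose carbon to pyruvate. LDHA, which turns pyruvate into lactate (ENSSSCG00000013366, chromosome 2, 40814163 to 40827284 of Sscrofa11.1), held 891, 879, 883 and 801 CPM at 3 h and 404, 379, 397 and 389.9 at 9 h (-1.14 ± 0.04, adjusted p = 3.5e-26), and together with SLC16A3 above it covers lactate production and export. PDK1, a kinase that inhibits pyruvate dehydrogenase, held 237, 217, 228 and 206 CPM at 3 h and 105, 105, 112 and 117 at 9 h (-1.02 ± 0.07). GAPDH was called lower (10.8 ± 3.13 to 4.86 ± 0.605 CPM, -1.16 ± 0.16), and ALDOA (0.359 ± 0.181 CPM at 3 h) was not called; both were counted at few reads. How the authors' counting treated reads that match several copies is not given in the sources used here, and both values are uncertain.

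Oxygen-response genes outside glycolysis moved the same way or little. The carbonic anhydrase gene CA9 held 169, 140.5, 137 and 150.3 CPM at 3 h and 79.2, 70.1, 78.2 and 78.3 at 9 h (-0.97 ± 0.07). VEGFA, the vessel growth factor, fell to 130.1 ± 4.02 from 195 ± 18.9 CPM (-0.58 ± 0.06). EPAS1, which encodes HIF-2 alpha, fell by less (-0.32 ± 0.07), as did NDRG1 (-0.31 ± 0.05) and the glucose transporter gene SLC2A3 (-0.26 ± 0.06). HIF1A, the oxygen-regulated subunit of HIF-1, was called higher (1043 ± 62.1 to 1168 ± 38.99 CPM, 0.16 ± 0.04, adjusted p = 0.0033), although without replicate 4 at 3 h its adjusted p was 0.055. Adrenomedullin (ADM, -0.03 ± 0.07) and PFKFB4 (-0.02 ± 0.11) did not pass. The count of members called lower was 21 or 22 with any 1 library left out, and 16 against a fold of 1.2.

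**Figure D3:**
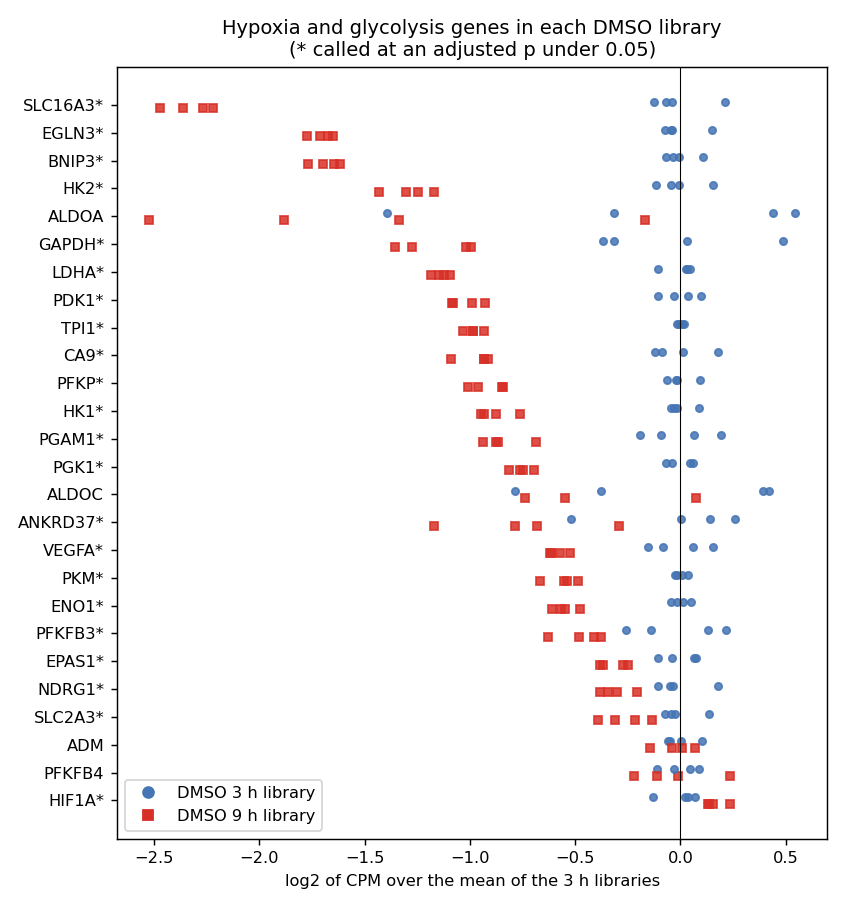
Hypoxia and glycolysis genes in each DMSO library, as log2 of the CPM over the mean of the 3 h libraries (circles 3 h, squares 9 h; an asterisk marks a call at an adjusted p under 0.05; 1 ALDOC library at 9 h with 0 counts is not drawn). In 20 of the genes called lower, the 9 h squares lie wholly left of the 3 h circles, farthest in SLC16A3, EGLN3 and BNIP3.

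Cholesterol synthesis moved the other way. Of 24 tested members 18 were called higher and 1 lower, with a median log2 fold change of 0.45, and the libraries summed to 2842 to 3093 CPM at 3 h and 3530 to 3692 CPM at 9 h. The rises were modest and very even between libraries. SQLE, which makes squalene epoxide (ENSSSCG00000005970, chromosome 4, 14669789 to 14700152 of Sscrofa11.1), held 206, 202, 199 and 178 CPM at 3 h and 293, 295, 291 and 296 at 9 h (0.58 ± 0.06), and CYP51A1, the lanosterol demethylase, 179, 182, 172 and 179 CPM at 3 h and 273, 259.9, 268 and 273 at 9 h (0.60 ± 0.05, adjusted p = 1.3e-14). IDI1 (0.61 ± 0.08), MSMO1 (0.58 ± 0.08), NSDHL (0.50 ± 0.06), MVK (0.47 ± 0.09), MVD (0.46 ± 0.09) and HMGCS1 (295 ± 13.5 to 399.7 ± 11.6 CPM, 0.44 ± 0.07) extend this from the first committed steps to the late sterol steps. TM7SF2, a sterol reductase, had the largest rise of the list (0.79 ± 0.15) at a low level of 4.18 ± 0.522 CPM at 3 h.

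Not every member of the pathway rose. SREBF2, the sterol-sensing factor that drives these genes, was the member called lower, with 309, 325, 338 and 379 CPM at 3 h and 269, 266, 259 and 253 at 9 h (-0.37 ± 0.07, adjusted p = 0.0001). INSIG1, which holds that factor in the endoplasmic reticulum and is also its target, did not pass (-0.06 ± 0.05). Neither did the enzyme genes LSS (0.05 ± 0.08) and DHCR7 (0.16 ± 0.10), nor STARD4 (0.23 ± 0.09, adjusted p = 0.051). In fatty acid synthesis 6 of 12 members were called higher and 2 lower (50.0% and 16.7%, against 10.4% and 11.8% of all genes). The elongase gene ELOVL6 held 19.5, 16.9, 19.5 and 16.4 CPM at 3 h and 34.9, 32.2, 33.0 and 34.6 at 9 h (0.90 ± 0.08), ACSL3 (0.44 ± 0.07), ACSS2 (0.42 ± 0.12), FADS1 (0.35 ± 0.05), ACLY (0.22 ± 0.05) and ACACA (0.15 ± 0.05) rose, SREBF1 (-0.49 ± 0.11) and SCD (-0.20 ± 0.05) fell, and FASN was not called (-0.12 ± 0.11). Against a fold of 1.2, 10 cholesterol synthesis genes and 2 fatty acid synthesis genes remained called higher.

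**Figure D4:**
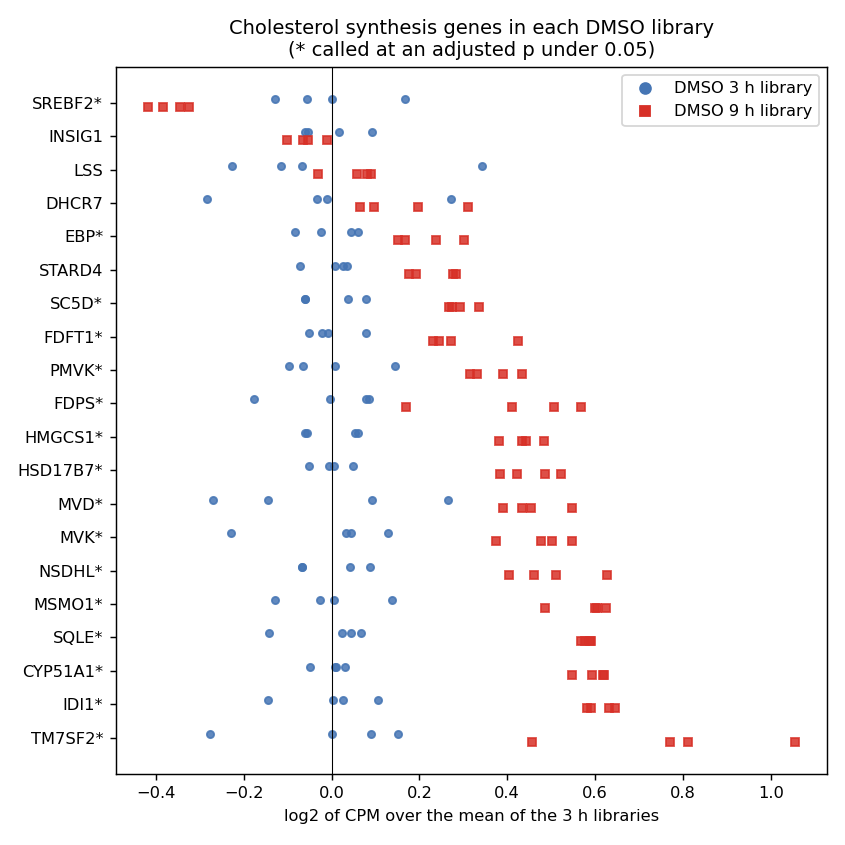
Cholesterol synthesis genes, leaving out those not reported here, in each DMSO library, as log2 of the CPM over the mean of the 3 h libraries (circles 3 h, squares 9 h; an asterisk marks a call at an adjusted p under 0.05). Squares lie right of the circles for most of the enzymes, and left of them for SREBF2.

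Cartilage matrix genes declined by small amounts. In this list 46.4% were called lower and 7.1% higher, against 11.8% and 10.4% of all genes. Of 28 tested members 13 were called lower and 2 higher, with a median log2 fold change of -0.15, and the summed level went from 113608 to 134328 CPM per library at 3 h to 104733 to 108706 CPM at 9 h. SOX9, the master regulator of chondrocytes (ENSSSCG00000017251, chromosome 12, 8642154 to 8647315 of Sscrofa11.1), fell most, with 894, 704, 834 and 789.8 CPM at 3 h and 501, 527, 504 and 522 at 9 h (-0.65 ± 0.06, adjusted p = 1.8e-11). It was the only member of this list still called against a fold of 1.2. The major collagen gene COL2A1 held 55142, 48168, 53869.8 and 65178 CPM at 3 h and 43422, 44188, 46223 and 42516 at 9 h (-0.33 ± 0.06), and part of its model overlaps another RefSeq gene. COMP, a matrix-bridging glycoprotein gene, fell from 2534 ± 312 to 1859 ± 129 CPM (-0.45 ± 0.08), and CILP2 (-0.37 ± 0.08), CILP (-0.35 ± 0.11), SOX5 (-0.28 ± 0.05) and PRELP (-0.23 ± 0.08) fell too. ACAN, which encodes aggrecan, was at the edge of the test (-0.16 ± 0.06, adjusted p = 0.033): leaving out replicate 1 or 3 at 3 h, or replicate 1, 3 or 4 at 9 h, gave an adjusted p of 0.057 to 0.12.

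Other members changed by smaller amounts or did not pass. COL9A1 (-0.15 ± 0.04), COL11A1 (-0.15 ± 0.04), COL11A2 (-0.15 ± 0.06), FMOD (-0.13 ± 0.04) and TRPS1 (-0.17 ± 0.07) were called lower, COL11A2 with an adjusted p of 0.051 to 0.20 in 6 of the 8 fits that left out 1 library. COL9A2 (3348 ± 157 and 3340.1 ± 119.8 CPM), COL9A3 (-0.03 ± 0.05), MATN3 (-0.03 ± 0.11), HAPLN1 (-0.13 ± 0.06), CNMD (-0.08 ± 0.12) and SNORC (-0.22 ± 0.08) did not pass. MATN1 (0.20 ± 0.06) and SOX6 (0.15 ± 0.06) were called higher, MATN1 with an adjusted p of 0.059 without replicate 1 at 3 h and SOX6 with values of 0.055 to 0.22 in 6 of those 8 fits. Among matrix-degrading enzymes and their inhibitors 7 of 19 were called lower, each by a small amount, with PLAUR (-0.34 ± 0.07), TIMP3 (-0.31 ± 0.05) and MMP14 (-0.25 ± 0.06) among them, and TIMP1 was called higher (0.19 ± 0.07), with an adjusted p of 0.062, 0.17 and 0.15 without replicate 3 or 4 at 3 h or replicate 1 at 9 h. In that list of enzymes and inhibitors 36.8% were called lower and 5.3% higher, against 11.8% and 10.4% of all genes. Of hypertrophy markers, which mark chondrocytes on the way to bone, IHH (14.6 ± 2.99 to 6.54 ± 1.15 CPM, -1.16 ± 0.14) and MEF2C (-0.44 ± 0.07) fell. That is 2 of 12 lower (16.7%, against 11.8% of all genes) and 0 higher (against 10.4%), counts too small to set this list apart.

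The clock genes, of which 10 of 24 were called lower and 3 higher, moved mainly in the output and repressor arms. Those shares were 41.7% and 12.5%, against 11.8% and 10.4% of all genes. DBP, an output factor of the clock, held 15.0, 11.2, 13.1 and 13.9 CPM at 3 h and 6.60, 8.26, 7.89 and 7.77 at 9 h (-0.80 ± 0.12, adjusted p = 3.4e-07). The period gene PER1 (ENSSSCG00000017983, chromosome 12, 53361863 to 53376723 of Sscrofa11.1) held 19.4, 15.2, 15.6 and 21.7 CPM at 3 h and 8.83, 11.8, 12.3 and 9.29 at 9 h (-0.77 ± 0.13), and PER2 10.7, 8.53, 11.0 and 11.2 CPM at 3 h and 7.38, 8.06, 6.64 and 7.70 at 9 h (-0.47 ± 0.14, adjusted p = 0.011). In all 3 genes the times did not overlap. The repressor gene CRY2 held 21.4, 16.3, 19.4 and 21.8 CPM at 3 h and 13.3, 16.3, 14.5 and 15.7 at 9 h (-0.40 ± 0.08), with 1 library of each time at 16.3 CPM. TEF, another output factor, held 40.5, 37.9, 43.1 and 56.2 CPM at 3 h and 35.3, 36.3, 34.0 and 33.8 at 9 h (-0.35 ± 0.07), the nuclear receptor gene RORA 92.0, 80.9, 85.6 and 79.2 CPM at 3 h and 67.3, 65.1, 66.1 and 69.2 at 9 h (-0.33 ± 0.06) and BHLHE40 140.4, 114, 122 and 110.1 CPM at 3 h and 106, 99.3, 97.8 and 98.3 at 9 h (-0.27 ± 0.06).

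The smaller clock changes were less firm. The casein kinase gene CSNK1E held 27.1, 25.3, 27.0 and 31.2 CPM at 3 h and 23.9, 23.6, 22.9 and 23.3 at 9 h (-0.24 ± 0.06), CIART, a repressor, 23.7, 24.8, 26.5 and 28.5 CPM at 3 h and 21.8, 22.2, 23.2 and 22.0 at 9 h (-0.22 ± 0.08) and CRY1 41.1, 45.0, 44.9 and 40.9 CPM at 3 h and 37.7, 36.6, 39.6 and 39.2 at 9 h (-0.17 ± 0.06). CIART lost its call without replicate 3 or 4 at 3 h or replicate 1, 2 or 4 at 9 h (adjusted p 0.065 to 0.16). CRY1 lost it without replicate 2 or 3 at 3 h or replicate 1 or 2 at 9 h (0.060 to 0.095). NFIL3, which opposes DBP at its target sites, rose, with 17.9, 17.4, 16.2 and 15.98 CPM at 3 h and 23.8, 23.6, 21.2 and 25.1 at 9 h (0.48 ± 0.07). The deubiquitinase gene USP2 held 11.13, 9.25, 9.87 and 9.06 CPM at 3 h and 10.1, 15.1, 12.9 and 14.7 at 9 h (0.43 ± 0.13) and CLOCK 67.8, 67.3, 69.2 and 58.3 CPM at 3 h and 76.5, 73.8, 76.0 and 73.1 at 9 h (0.19 ± 0.06). Without replicate 4 at 3 h the adjusted p of CLOCK was 0.12, and without replicate 2 at 9 h that of USP2 was 0.060.

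The core activator and the REV-ERB genes did not pass. BMAL1, the partner of CLOCK, held 36.1, 32.9, 33.4 and 36.4 CPM at 3 h and 34.3, 30.5, 34.2 and 33.3 at 9 h (-0.07 ± 0.06), and NPAS2, which can replace CLOCK, 38.1, 31.5, 34.9 and 32.1 CPM at 3 h and 34.4, 37.0, 32.6 and 34.9 at 9 h (0.03 ± 0.08). NR1D1 held 8.91, 6.60, 7.54 and 6.05 CPM at 3 h and 6.92, 8.38, 8.53 and 8.23 at 9 h (0.15 ± 0.20) and NR1D2 153, 144, 151 and 144 CPM at 3 h and 142, 147, 146 and 154 at 9 h. PER3 held 24.4, 19.0, 23.0 and 21.8 CPM at 3 h and 18.2, 20.4, 21.9 and 16.6 at 9 h (-0.19 ± 0.08, adjusted p = 0.09). None of these 5 separated the times. CSNK1D held 100.5, 102, 100.2 and 121 CPM at 3 h and 96.1, 96.6, 91.8 and 96.0 at 9 h (-0.16 ± 0.07), without overlap but short of the threshold. BHLHE41 held 54.0, 46.7, 52.8 and 47.3 CPM at 3 h and 45.2, 50.7, 48.1 and 51.2 at 9 h, HLF 21.6, 15.8, 19.5 and 17.5 CPM at 3 h and 19.2, 19.9, 19.4 and 20.0 at 9 h and FBXL21 8.45, 7.93, 9.46 and 7.56 CPM at 3 h and 9.12, 8.31, 7.60 and 9.51 at 9 h, with log2 fold changes between -0.04 and 0.08. These last 3 genes, a repressor, an output factor and a ubiquitin ligase subunit, overlapped between times.

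Stress-defence genes rose in part. Of 17 tested NRF2 and oxidative stress genes 8 were called higher and 3 lower (47.1% and 17.6%, against 10.4% and 11.8% of all genes). HMOX1, which degrades heme, held 41.7, 47.3, 47.6 and 52.5 CPM at 3 h and 92.0, 84.3, 93.4 and 103 at 9 h (0.98 ± 0.09, adjusted p = 3.9e-12), and SLC7A11, which imports cystine for glutathione, 78.2, 76.5, 85.6 and 65.0 CPM at 3 h and 136, 129, 147 and 159 at 9 h (0.90 ± 0.08). NQO1 (0.50 ± 0.07), OSGIN1 (0.48 ± 0.10), GCLM (0.42 ± 0.06), NFE2L2, which encodes NRF2 itself (0.34 ± 0.05), SQSTM1 (0.30 ± 0.05) and GSR (0.22 ± 0.05) rose by less. Its other members TXNRD1 (0.09 ± 0.05), SRXN1 (0.09 ± 0.06) and KEAP1 (-0.04 ± 0.06) did not pass, and ME1, a source of NADPH, fell (131 ± 3.52 to 80.6 ± 2.04 CPM, -0.71 ± 0.05).

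Of 23 genes of the unfolded protein and integrated stress response 6 were called higher and 3 lower. Those shares were 26.1% and 13.0%, against 10.4% and 11.8% of all genes. Besides TRIB3 the 6 were SESN2 (49.3, 38.1, 42.7 and 38.5 CPM at 3 h and 74.3, 69.6, 72.9 and 72.8 at 9 h, 0.78 ± 0.07), the amino acid synthesis genes ASNS (0.36 ± 0.05), PSAT1 (0.32 ± 0.06) and PHGDH (0.26 ± 0.07), and ATF4 (720.3 ± 30.6 to 880.2 ± 45.6 CPM, 0.29 ± 0.04). The chaperones of the endoplasmic reticulum HSPA5 (0.07 ± 0.05) and HSP90B1 (0.05 ± 0.06) did not pass, nor did XBP1 (-0.09 ± 0.05). VLDLR (-1.02 ± 0.17), PDIA6 (-0.26 ± 0.04) and CHAC1 (-0.23 ± 0.07) fell. In the heat shock list 5 of 18 rose (27.8%), led by CHORDC1 (0.55 ± 0.08), and 3 fell (16.7%), led by HSPB1 (149.5 ± 11.9 to 106 ± 4.85 CPM, -0.50 ± 0.07).

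Developmental signalling genes fell more often than they rose. The share called lower was 33.3% of WNT, Notch and hedgehog genes and 33.3% of TGF-beta and BMP genes, against 11.8% of all genes. The shares called higher were 0.0% and 3.7%, against 10.4%. Over all lists together, 155 of 588 different genes were called lower and 95 higher. The shares called lower therefore do not set these lists apart from the others. Of 33 WNT, Notch and hedgehog genes 11 were called lower and 0 higher: NOTCH3, a Notch receptor gene, held 7.63, 6.84, 6.01 and 8.23 CPM at 3 h and 3.33, 3.98, 3.91 and 2.65 at 9 h (-1.05 ± 0.15), the hedgehog effector gene GLI2 18.5, 12.3, 12.7 and 16.8 CPM at 3 h and 7.56, 8.62, 7.35 and 6.36 at 9 h (-1.01 ± 0.13), and the ligand gene WNT5B went from 15.7 ± 1.02 to 7.84 ± 1.36 CPM (adjusted p = 2.4e-09). The receptors FZD8 (-0.54 ± 0.10), FZD7 (-0.50 ± 0.05) and PTCH1 (-0.45 ± 0.10) and the nuclear factor TCF7 (-0.70 ± 0.17) fell with them. In the TGF-beta and BMP list 9 of 27 fell and 1 rose. The BMP targets ID1 (221, 263, 225 and 266 CPM at 3 h and 148, 137, 152 and 150.4 at 9 h, -0.73 ± 0.06), ID3 (121, 119, 119 and 119.9 CPM at 3 h and 74.3, 71.9, 73.3 and 73.0 at 9 h, -0.71 ± 0.07) and ID2 (-0.43 ± 0.08) led the falls, and the ligand gene BMP6 rose (0.51 ± 0.10). The libraries of ID3 at each time matched closely.

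Immediate early genes split, 6 of 28 called higher and 7 lower. After ATF3, the AP-1 subunit genes FOSL1 (5.66 ± 0.770 to 8.79 ± 1.29 CPM, 0.62 ± 0.13) and FOSB (0.49 ± 0.13) and EGR1 (0.41 ± 0.12) were higher. The nuclear receptor gene NR4A2 held 52.1, 37.1, 39.8 and 34.2 CPM at 3 h and 21.9, 22.0, 21.3 and 19.8 at 9 h (-0.94 ± 0.10), and SIK1 (-0.81 ± 0.14), KLF10 (-0.47 ± 0.06) and KLF2 (-0.38 ± 0.08) were lower. The NF-kB and inflammatory list held 4 of 27 called higher and 6 lower (14.8% and 22.2%, against 10.4% and 11.8% of all genes). CSF1, the macrophage growth factor, held 33.9, 32.3, 31.7 and 32.7 CPM at 3 h and 59.0, 63.7, 60.3 and 55.0 at 9 h (0.87 ± 0.06), PTGES, the inducible prostaglandin E synthase, 61.1, 72.1, 59.8 and 71.6 CPM at 3 h and 28.9, 28.3, 29.2 and 30.2 at 9 h (-1.18 ± 0.08), and the cytokine signal inhibitor SOCS3 fell from 41.5 ± 3.41 to 21.5 ± 1.13 CPM (-0.95 ± 0.08). Of 22 interferon genes 2 were called higher and 1 lower (13.6% called, against 22.2% of all genes), with the viral RNA sensor IFIH1 the larger rise (0.40 ± 0.10). The gene called lower, IFI6 (-0.63 ± 0.16), had an adjusted p of 0.052 without replicate 2 at 3 h.

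Nutrient and hormone lists moved in both directions. Of nutrient and insulin-FOXO genes 30.0% were called higher and 40.0% lower, and of glucocorticoid targets 23.1% and 46.2%. Over all genes the shares were 10.4% and 11.8%. Of 20 nutrient and insulin-FOXO genes 6 rose and 8 fell: PIK3IP1, a PI3-kinase inhibitor, rose from 25.2 ± 2.83 to 41.8 ± 5.80 CPM (0.73 ± 0.09) and TRIB1 rose (0.87 ± 0.09), and PDK4, at a low level, had the largest rise (1.27 ± 0.39, adjusted p 0.057 without replicate 2 at 3 h), while ARRDC4 (-0.47 ± 0.07) and TXNIP (-0.37 ± 0.07), which report glucose to the cell, fell. Of 13 glucocorticoid targets 6 fell, among them ANGPTL4 (-0.92 ± 0.08), ZBTB16 (-0.71 ± 0.16) and KLF9 (-0.67 ± 0.09), and TSC22D3 (0.45 ± 0.06), FKBP5 (0.33 ± 0.08) and the receptor gene NR3C1 (0.19 ± 0.05) rose. In the respiratory chain list 5 of 17 fell (29.4%) and 0 rose, PPARGC1A, a coactivator of mitochondrial genes, by the most (-0.73 ± 0.16). The cytosolic ribosomal proteins called lower numbered 9 of 25 (36.0%, against 11.8% of all genes), led by RPLP2 (-0.29 ± 0.07), 3 without replicate 2 at 3 h, 4 without replicate 4 at 3 h or replicate 2 at 9 h, and 4 in a fit of the 8 DMSO libraries alone. Replicate 2 at 3 h was the library with the highest small RNA share, whose part in this result was not tested.

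The channels the series is about changed little in the controls. TRPV4 (ENSSSCG00000009929, chromosome 14, 41125819 to 41169582 of Sscrofa11.1) held 479, 509, 516 and 572 CPM at 3 h and 616, 582, 604 and 554 at 9 h (0.18 ± 0.06, adjusted p = 0.013), with overlapping libraries, and its adjusted p was 0.078 without replicate 1 at 3 h and 0.054 without replicate 1 at 9 h. PIEZO1 (ENSSSCG00000035230, chromosome 6, 914480 to 967113 of Sscrofa11.1) held 104, 102, 108 and 134 CPM at 3 h and 93.0, 94.5, 89.3 and 89.7 at 9 h (-0.29 ± 0.09, adjusted p = 0.011). Its call rested on replicate 4 at 3 h: without that library the log2 fold change was -0.20 and the adjusted p 0.12. Of the 25 tested mechanosensitive and calcium channel genes 5 rose and 3 fell (20.0% and 12.0%, against 10.4% and 11.8% of all genes), and without replicate 1 at 3 h 3 rose. STIM2, a calcium sensor of the endoplasmic reticulum (0.52 ± 0.13), and the calcium release channel gene ITPR1 (0.44 ± 0.10) rose, and CACNA1H, a further T-type channel gene, fell from 39.4 ± 7.68 to 24.9 ± 1.79 CPM (-0.67 ± 0.11).

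The other 5 conditions of the TRPV4 experiment have libraries of their own at both times, and their changes mix time with the stimulus, so values are given side by side without a test. They are the TRPV4 agonist GSK101, the antagonist GSK205, cyclic compressive loading, loading with GSK205, and IL-1, an inflammatory cytokine. Of the 15 largest falls in DMSO, the log2 fold change was below 0 in all 15 under GSK101, GSK205, loading and loading with GSK205, and in 11 under IL-1. Of the 15 largest rises it was above 0 in 15 under GSK205, 14 under loading, 13 under loading with GSK205, 13 under IL-1 and 7 under GSK101. The median of the 26 hypoxia and glycolysis genes was -0.83 under GSK205, -0.77 under loading and -0.89 under loading with GSK205, close to the -0.80 of DMSO. It was -0.22 under GSK101 and 0.07 under IL-1, where HK2 stood at 2.16 and LDHA at 1.64 on the log2 scale. The median of the 24 cholesterol synthesis genes was 0.53 under GSK205, 0.34 under loading, 0.46 under loading with GSK205, 0.45 under GSK101 and 1.12 under IL-1. For SOX9 all 5 values were below 0, from -0.77 under loading to -0.15 under GSK205.

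The NT vehicle controls of the PIEZO1 experiment ask whether the same time course appeared in other cultures, with no library shared. Those libraries were made with another kit (SMARTer low-input cDNA, against ribosomal RNA removal and random priming for DMSO) and varied more, with a common biological coefficient of variation of 0.309 in the PIEZO1 experiment against 0.0986 in the TRPV4 experiment. There 1618 of 20202 genes were called higher at 9 h (8.01%) and 1636 lower (8.1%). Of the 1815 genes higher in DMSO and tested in NT, 443 were called higher and 122 lower in NT, and of the 2046 lower in DMSO 416 were called lower and 167 higher. The 1148 genes called in both made up 29.7% of the DMSO calls and 36.0% of the NT calls tested in both fits, and 859 of them moved in the same direction. Across all 16646 genes tested in both, the log2 fold changes had a Pearson correlation of 0.12 and a Spearman correlation of 0.16, as a description, since genes are not independent replicates. Marker levels differed as well. At 3 h COL2A1 averaged 7490 CPM in NT against 55590 in DMSO, ACAN 1367 against 20046 and COL9A3 16.2 against 4162.5. COMP differed the other way, at 22890 CPM in NT against 2534. Kit, culture and experiment cannot be told apart here.

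The difference between the experiments was tested directly, as the interaction of time with experiment over the 16 libraries. It was called for 2431 of 17047 genes (14.3%), 1383 with the change higher in DMSO and 1048 with it lower, and the 1383 became 882 without replicate 2 of DMSO at 3 h. Of the 15 largest rises in DMSO, 10 were also called higher in NT and 7 differed between the experiments, all 7 also with limma's voom and a variance per group. Of the 15 largest falls, 6 were called lower in NT and 11 differed, of which 5 passed with limma's voom. Several of the 11 were counted at few reads in NT: CACNA1I (0.358 CPM at 3 h and 0.465 at 9 h), GABRA2 (0.511 and 0.546), ISLR2 (0.214 and 0.297), LANCL3 (0.753 and 0.512) and RADIL (0.0791 and 0.113) averaged under 1 CPM at both times. SMPD3 stood at 1.07 and 0.911 CPM there, against 388 and 92.1 in DMSO. At these levels a missing call in NT does not show that the gene held its level. CYP1A1 rose in both (2.26 ± 0.60 in NT), as did AKNA (1.06 ± 0.34), PPM1K (1.85 ± 0.16) and GDF15 (1.05 ± 0.23), and SLC16A3 fell in both by similar amounts (-2.16 ± 0.30 in NT, difference -0.15 ± 0.28, adjusted p = 0.8). LRP11 (-0.49 ± 0.29 in NT, difference 2.30 ± 0.28, adjusted p = 4.1e-06), ATF3 (0.01 ± 0.16, difference 1.25 ± 0.20) and PPP1R3B (-0.27 ± 0.10, difference 1.56 ± 0.13) rose in DMSO and were not called in NT.

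List by list the experiments shared some changes and parted on others. Over all genes, 8.01% of those tested in NT were called higher and 8.1% lower, and 14.3% of the tested differences were called. In NT 12 of 26 hypoxia and glycolysis genes were called lower and 2 higher, with a median of -0.26, and 11 were lower in both experiments. The change was lower in DMSO for 17 of the 25 genes with a tested difference, among them LDHA (-0.44 ± 0.07 in NT, difference -0.67 ± 0.09) and EGLN3 (0.74 ± 0.32, difference -2.41 ± 0.30), and higher in DMSO for 4, PFKFB4, PFKFB3, VEGFA and NDRG1. For VEGFA that difference had an adjusted p of 0.026, 0.21 with limma's voom and a variance per group, and 0.056 to 0.080 in the 5 fits without replicate 2 or 3 of DMSO at 3 h, replicate 1 of NT at 3 h, or replicate 2 or 3 of NT at 9 h. Of cholesterol synthesis genes only 4 of 24 were called higher in NT and 4 lower, and 13 differed, all with the change higher in DMSO. Cartilage matrix genes were 8 higher and 1 lower of 28 in NT: SOX9 rose there (0.50 ± 0.11, difference -1.12 ± 0.11, adjusted p = 1.3e-07), as did SOX5 (1.08 ± 0.09) and HAPLN1 (1.12 ± 0.09), and COL2A1 was not called (-0.24 ± 0.10).

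Interferon genes, HMOX1 and NR4A2 parted as well. In NT 16 of 23 interferon genes were called lower (against 8.1% of all genes). MX1, an antiviral GTPase gene, stood at -2.80 ± 0.14 there and at 0.13 ± 0.19 in DMSO. For this list 16 of 21 tested differences were called (against 14.3% of all genes). HMOX1 rose in DMSO and fell in NT (-1.56 ± 0.15, difference 2.57 ± 0.16, adjusted p = 3.8e-10), and NR4A2 did the reverse (1.09 ± 0.18 in NT, difference -1.997 ± 0.17). ID1 and ID3 fell in both and by more in NT (-2.81 ± 0.28 and -2.63 ± 0.11). Of the clock genes 5 were called lower in both, PER1 (-0.91 ± 0.26 in NT), PER2 (-0.92 ± 0.20), CRY2, BHLHE40 and CSNK1E, and NFIL3 was higher in both (1.36 ± 0.18 in NT). RORA and CIART went opposite ways (0.77 ± 0.14 and 0.64 ± 0.13 in NT). NQO1 (0.74 ± 0.09) and SLC7A11 (0.95 ± 0.12) rose in NT as in DMSO. So did 15 of 23 genes of the unfolded protein and integrated stress response in NT (against 8.01% of all genes), including all 6 that rose in DMSO.

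**Figure D5:**
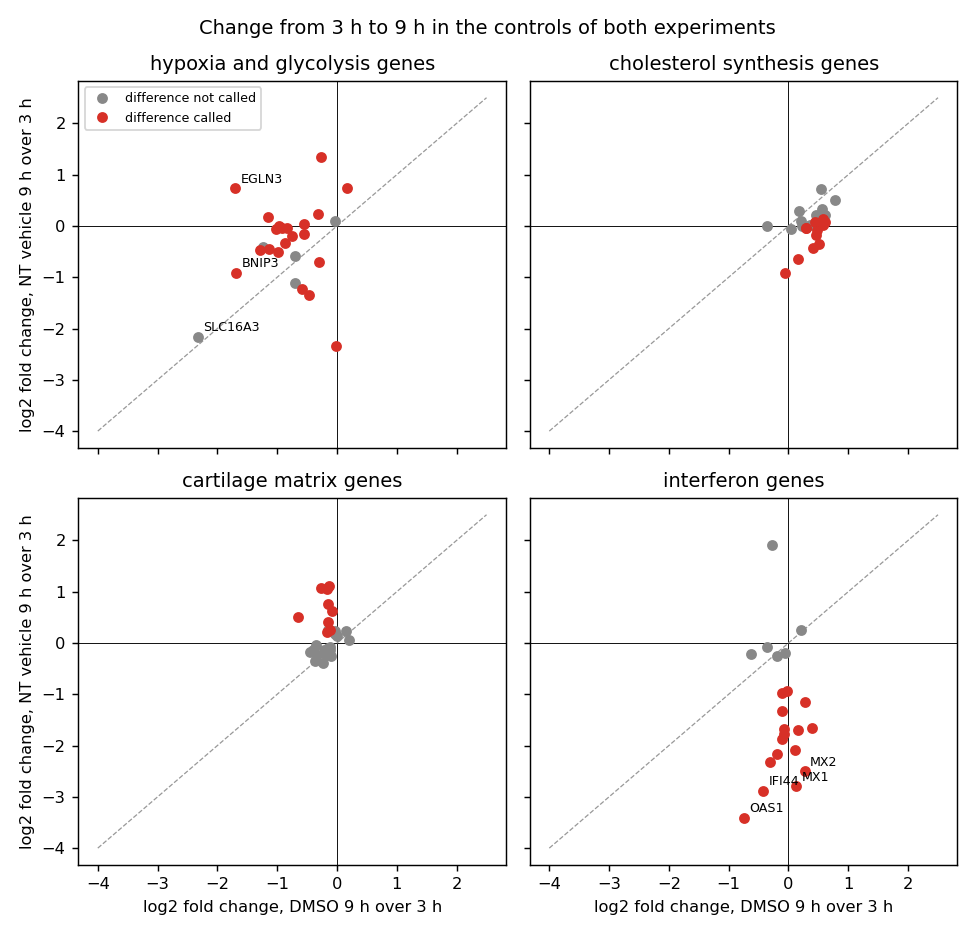
Log2 fold change of 9 h over 3 h in DMSO libraries (horizontal) and in NT vehicle libraries (vertical) for the tested members of 4 lists, coloured red where the difference between the experiments was called and grey where it was not; the dashed line marks equal change. SLC16A3 lies on the line, cholesterol synthesis genes lie mostly right of 0 and near 0 vertically, and interferon genes lie low on the vertical axis with little change in DMSO.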

How the data were processed

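RNA of 120 pig chondrocyte constructs was sequenced in paired reads on a NovaSeq, per the labels' protocols. Ribosomal RNA removal and random priming served for the TRPV4 libraries and low-input cDNA for the PIEZO1 libraries, while the labels name polyA RNA for all. The authors deposited 1 table of raw counts per gene, made with Trim Galore, STAR and HTSeq on Sscrofa11.1, per the submitters' processing notes. Not given in the sources used here are versions, strand setting and the treatment of reads with several matches, so reads of overlapping gene models (159 of 615 named or listed genes, by RefSeq, among them AKNA, RADIL, PIEZO1, PDK1, ACAN, GAPDH, ELOVL6 and NOTCH3) cannot be separated. Reported genes whose whole model overlaps another include PDK4, ARRDC4, FZD8, CCN1, TIMP1, TIMP3 and CPLANE2, while for ACAN and NOTCH3 the overlap is a small part. In the 8 DMSO libraries 69.7 to 72.4% of the deposited counts from 1 to 20 were even, and the cause was not tested. The tests use the spread between libraries. The table had 32388 lines, of which 481 repeated an identifier with the same values and were dropped, leaving 31907 genes. Symbols came from the table (16681), the gene name table (822) or RefSeq (762).

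Counts were scaled by TMM, filtered with filterByExpr at a minimum count of 10 and tested with edgeR 4.0.16 (R 4.3.3): a quasi-likelihood fit over all 48 TRPV4 libraries with a term per group, all 72 PIEZO1 libraries for NT, and the 16 vehicle libraries for the difference between experiments. Each p was adjusted by Benjamini-Hochberg over all genes tested, and the threshold was 0.05. Standard errors are the log2 fold change divided by the root of F. Composition of the libraries was compared by exact permutation tests (Python 3.11.15, numpy 2.4.6). The steps were tested on simulated data. Alternatives were DESeq2 1.42.0, upper quartile scaling, no filter, only the libraries compared, protein-coding genes only, a replicate block, glmTreat against a fold of 1.2, limma 3.58.1 voom for the difference, and each library left out.

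The comparison, gene lists and rules were chosen with earlier results of these data known. By rule, the text names the 15 largest rises and 15 largest falls among called protein-coding genes with at least 5 CPM in the higher group and no overlap between times, the 5 smallest p among genes changed 2-fold or more, the largest rise and fall in each list, clock genes, chondrocyte markers and the leading small RNAs. Other list members are examples chosen after their values were seen. Some listed genes are counted in their lists but not reported here by name. Replicate numbers did not pair the libraries. A check of promoter motifs was not made, as promoter sequences were not used here.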

Additional observations from a re-analysis of the deposited data

Results flagged for a closer look

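In 7 of 132 groups of 4 libraries examined (5.30%, where chance gives about 1 in 20), a library stood apart from the other 3 of its time. Replicate 4 at 3 h was the lone library in 3 of them: it was highest for CSNK1D (120.8 CPM) and EGLN3 (17.6 CPM), and lowest for LDHA (801 CPM). Replicate 1 at 3 h was lowest for TMEM74B (4.77 CPM). At 9 h replicate 1 was lowest for AKNA (51.0 CPM), replicate 2 for TMEM74B (1.07 CPM) and replicate 3 for CSNK1D (91.8 CPM). In AKNA, EGLN3, LDHA and TMEM74B the times stayed apart by far more than these gaps.

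The change from 3 h to 9 h differed between DMSO and NT vehicle libraries, by the interaction term, in 31 of 58 genes examined. These were the largest rises and falls, clock genes and a few others printed above. Most were chosen for their change in DMSO, which enters the difference, so this count is not set against the share over all genes. Each value is the log2 fold change in DMSO minus that in NT. Among genes that fell in DMSO it was -2.48 for CACNA1I, -2.41 for EGLN3, -2.39 for GABRA2, -2.09 for ISLR2, -2.03 for RADIL, -1.997 for NR4A2, -1.79 for SMPD3, -1.78 for LANCL3, -1.40 for TMEM74B, -1.38 for ATG9B, -1.29 for CGNL1, -1.12 for SOX9, -1.07 for RORA, -0.83 for CIART, -0.74 for BNIP3, -0.67 for LDHA and -0.63 for SLC6A6. In NT, CACNA1I, GABRA2, ISLR2, LANCL3 and RADIL averaged under 1 CPM at both times and SMPD3 stood at 1.07 CPM at 3 h, levels at which a fall is hard to detect. The calls for LANCL3, RADIL and SMPD3 did not pass with limma's voom (adjusted p 0.35, 0.30 and 0.16), nor did those for ATG9B (0.083), ISLR2 (0.051) and SLC6A6 (0.075).

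For BHLHE40 (0.35) and CRY2 (1.14) the fall was smaller in DMSO than in NT, and BHLHE41 (1.23) was called lower in NT and not in DMSO. Among genes that rose in DMSO the difference was 2.57 for HMOX1, 2.30 for LRP11, 1.56 for PPP1R3B, 1.25 for ATF3, 0.84 for RHOU, 0.70 for TRIB3, 0.61 for USP2 and 0.41 for GPCPD1. The rise was larger in NT for NFIL3 (-0.86), SESN2 (-0.75) and PPM1K (-0.73). Kit, culture and experiment cannot be told apart in any of these differences.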

How the results depend on the processing

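None of the called genes recomputed here changed sign under an alternative. The median log2 fold change over all genes, -0.0024 in DMSO, was 0.012 with upper quartile scaling and 0.0065 without replicate 1 at 3 h. The median difference between experiments, 0.038, was -0.0098 without replicate 2 of DMSO at 3 h, where 882 differences were higher and 991 lower in place of 1383 and 1048. The 3881 genes called in DMSO ranged from 3119 to 3775 with 1 library left out, and from 3278 to 4102 under the other fits with no minimum fold. Against a fold of 1.2, which asks for a larger change, 711 genes were called. Counting a gene once in each list that holds it, 84 of the 255 list members called were called by that test. Leaving out 1 library gave 225 to 246 list members, counted the same way. The NT count of 3254 ranged from 2606 to 3252 with 1 library left out, and the difference count of 2431 from 1873 to 3020. With the replicate number as a block, which does not pair these libraries (correlations of deviations -0.082, -0.026, -0.0024 and -0.022), 3836 genes were called in DMSO, 3390 in NT and 2014 in the difference. Upper quartile scaling gave 2002 higher and 1908 lower in DMSO in place of 1822 and 2059. Depth limits precision near or under 1 CPM: ALDOA, ALDOC and DDIT3 did not pass there, with standard errors of 0.55, 0.75 and 0.38, while AREG and PDK4 passed with 0.35 and 0.39.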

Other observations

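Further lists held called genes in DMSO libraries, where 10.4% of all genes were called higher and 11.8% lower. Over all lists together, 95 of 588 different members were called higher and 155 lower, larger shares than over all genes. The shares called in the p53, YAP-TAZ and SRF lists below therefore do not set these lists apart from the others. Among growth factors 4 of 20 rose (20.0%) and 2 fell (10.0%), and 1 fell without replicate 1 or 4 at 3 h or replicate 2 or 4 at 9 h. CYTL1, a cytokine-like protein gene of cartilage, went from 17.1 ± 1.31 to 32.2 ± 2.58 CPM (0.92 ± 0.09 on the log2 scale, edgeR's quasi-likelihood test, adjusted p = 1.4e-11) and was not called in NT (-0.26 ± 0.11). HBEGF, an EGF receptor ligand gene, rose at a low level (1.24 ± 0.182 to 2.58 ± 0.372 CPM) and fell in NT (-1.44 ± 0.18, difference 2.52 ± 0.22). AREG, a further such ligand gene, was called at under 1 CPM (1.10 ± 0.35), with an adjusted p of 0.11, 0.070 and 0.056 without replicate 4 at 3 h or replicate 1 or 4 at 9 h. Of 16 p53 targets 4 rose and 3 fell (43.8% called, against 22.2% of all genes): GADD45A, a growth arrest gene, rose in both experiments (0.89 ± 0.08 in DMSO, 0.73 ± 0.22 in NT), as did the cell cycle inhibitor gene CDKN1A (0.23 ± 0.05 and 0.24 ± 0.09), while MDM2 (-0.16 ± 0.05) and TP53INP1 (-0.28 ± 0.07) fell in DMSO. The 3 lower p53 targets became 1 without replicate 2 at 3 h or replicate 2 at 9 h.

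Changes in the mechanical and growth lists were mostly small. Of 18 YAP-TAZ targets 2 rose and 5 fell (38.9% called), with TEAD1 (0.29 ± 0.08) and F3 (-0.47 ± 0.17, adjusted p of 0.083 to 0.25 in 5 of the 8 fits that left out 1 library) the largest each way. The 5 lower genes became 3 without replicate 4 at 3 h or replicate 2 or 4 at 9 h. CCN1, a matricellular protein gene, rose in DMSO (0.28 ± 0.07) and fell in NT (-1.40 ± 0.14). Of 20 SRF and actin genes 2 rose and 6 fell (40.0% called), by small amounts except ACTA2, which encodes smooth muscle actin (2.35 ± 0.811 to 1.07 ± 0.258 CPM, -1.11 ± 0.31). The cell adhesion gene VCL rose (0.23 ± 0.06, adjusted p 0.062 without replicate 4 at 3 h). The 6 lower genes became 3 without replicate 2 or 4 at 9 h and 2 without replicate 3 at 9 h. Cell cycle genes gave 4 higher and 2 lower of 29 (20.7% called), with MCM4, a replication helicase gene, the largest fall (-0.46 ± 0.10) and KIF20A the largest rise (0.58 ± 0.20, adjusted p of 0.054 to 0.083 in 6 of those 8 fits), and ribosome synthesis genes 4 higher and 2 lower of 22 (27.3% called), led by UTP20 (0.31 ± 0.06) and UTP15 (-0.36 ± 0.08). Of 6 histone genes tested 2 fell, H1-2 (-0.49 ± 0.07), whose identifier is annotated as a pseudogene, and H2BC21 (-0.42 ± 0.13). Of the 13 listed histone genes 7 had no line among the deposited counts. CIDEC, a lipid droplet gene of fat cells, was the called member of the 3 adipocyte and erythroid markers tested (6.08 ± 0.384 to 2.95 ± 0.689 CPM, -1.04 ± 0.15). Of the 7 leukocyte markers CSF1R was called (-0.78 ± 0.29, adjusted p = 0.044), with an adjusted p of 0.051 to 0.13 in 7 of those 8 fits. MIR140, a cartilage microRNA gene singled out after its values were seen, held 6.497, 6.40, 5.88 and 9.90 CPM at 3 h and 5.29, 4.44, 4.05 and 3.49 at 9 h (-0.74 ± 0.19, adjusted p = 0.0036). It lies within WWP2 (-0.24 ± 0.05), and reads of that host transcript cannot be separated from its own here. Of 1956 long noncoding RNA genes tested 43 were called higher (2.20%) and 69 lower (3.53%), smaller shares than over all genes.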
